A study of Mus musculus with 8 samples.

Results

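The genes described here are those that set follicles grown from transplanted germline stem cells apart from wild type follicles in the same direction at both stages of follicle growth. A gene counted as separated the same way when both TF libraries lay above, or both below, both WT libraries in preantral follicles and again, in the same direction, in small antral follicles. Of the 17925 genes tested, 4407 (24.6%) met this, 1781 of them (9.94%) with higher levels in TF and 2626 (14.6%) with lower levels. Another 1458 genes (8.13%) were separated at both stages in opposite directions. Among the 4407, a model of all 8 libraries with stage as a covariate passed 1363 genes (7.6% of those tested) at an adjusted p under 0.05, and these are called the shared genes below: 370 (2.06%) were higher in TF and 993 (5.54%) lower.

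RNA was sequenced from 8 single ovarian follicles of C57BL/6 mice, with 2 libraries in each of 4 groups. The groups were preantral (PF) and small antral (SAF) follicles of either source: TF, derived from transplanted female germline stem cells, and WT, of wild type mice. Follicles were freed with a needle and frozen, and their polyadenylated RNA was amplified with the SMARTer Ultra Low Input kit. The sources used here give no genotype, transgene or drug for any group, no ages, no transplant hosts, and not which cells of a TF follicle derive from the transplant. Nothing states that follicles of 1 group were from different animals, so the p-values measure only the spread between these follicles.

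A follicle holds an oocyte surrounded by granulosa cells, with theca cells, vessels and stroma joining from the outside as it grows. The theca is recruited by hedgehog signals from the granulosa cells and makes androgens, which the granulosa cells convert to oestrogens. Female germline stem cells are cells isolated from ovaries that have been reported to give rise to oocytes after transplantation. A whole follicle is a mixture, so fewer cells of a type and less RNA per cell of that type cannot be told apart.

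Library totals over the 21997 genes listed for both sources ran from 7654700 to 9804822 counts. Of these genes, the libraries held counts for 18796 (PF-TF replicate 1) to 20694 (PF-WT replicate 2). Levels are given in CPM, counts scaled to library size with TMM factors, and a count of 0 allows up to 0.301 to 0.394 CPM (3 counts), which covers counting error only. Oocyte and granulosa markers were found in every library. The summed level of 10 oocyte markers was 7292.5 and 6576 CPM in PF-WT and 16595 and 13942 CPM in PF-TF. In SAF it was 468 and 2521 CPM in WT and 432 and 209 CPM in TF. The sum of 8 granulosa markers was higher in TF at both stages. It was 1908 and 3113 CPM in PF-WT, 3428 and 3440 CPM in PF-TF, 553 and 669 CPM in SAF-WT, and 1558 and 2307 CPM in SAF-TF. None of the 10 oocyte markers was separated the same way at both stages. The summed level of 5 luteal markers was 13986 and 13458 CPM in SAF-TF, against 108 and 94.4 CPM in SAF-WT. In PF that sum was 57.5 and 41.5 CPM in WT and 31.9 and 42.6 CPM in TF. What the luteal markers say about the stage of the SAF-TF follicles was not tested.

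The shared difference leaned towards lower levels in TF, and its sizes were moderate. Shared genes that were higher in TF had a median log2 fold change of 1.35 (quartiles 1.06 and 1.82), where a log2 fold change of 1 is a doubling. Those lower in TF had a median of -0.98 (quartiles -1.30 and -0.78), beside a median of -0.0012 over all genes tested. By stage the median was 1.15 in PF and 1.52 in SAF for the higher genes, and -0.92 and -1.05 for the lower ones, where the requirement of separation at both stages fixes the signs. In total 1400 genes passed the source test (7.81% of those tested), 388 higher (2.16%) and 1012 lower (5.65%). The list counts below are to be read beside these shares. When libraries were scaled by their totals alone, the median of all genes moved to 0.11 and the calls divided into 498 higher and 601 lower, with 2442 genes separated upwards and 2068 downwards.

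The tests within a single stage differed in how many genes they called. Both TF libraries lay on 1 side of both WT libraries for 49% of the genes tested in PF and for 63.8% in SAF. The test within PF called 39 genes (0.218% of those tested, 0.0669% higher and 0.151% lower) and the test within SAF called 1785 (9.96%, with 4.61% higher and 5.34% lower). Among the 370 shared genes higher in TF, 7 passed in PF, 190 in SAF and 5 at both stages. Among the 993 lower genes, 17 passed in PF, 552 in SAF and 10 at both stages. A difference between the stage effects passed the interaction test for 2 of the higher and 4 of the lower shared genes, against 162 genes (0.904%) overall. In PF the counts of higher and lower calls were 1 and 0 when PF-TF replicate 1 was omitted, 32 and 119 for PF-TF replicate 2, 2 and 9 for PF-WT replicate 1 and 258 and 677 for PF-WT replicate 2. They were 5 and 12 on omitting either SAF-TF library and 4 and 6 on omitting either SAF-WT library. In SAF they were 93 and 50 on omitting SAF-TF replicate 1, 600 and 407 for SAF-TF replicate 2, 77 and 129 for SAF-WT replicate 1 and 140 and 152 for SAF-WT replicate 2. The shared genes just inside the threshold were Pias4, Cav2 and Pcolce, at log2 fold changes of 1.27, -2.04 and 1.83, and those just outside were Adcy7, Lage3 and Acot13, at -1.79, -0.57 and -0.60.

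**Figure D1:**
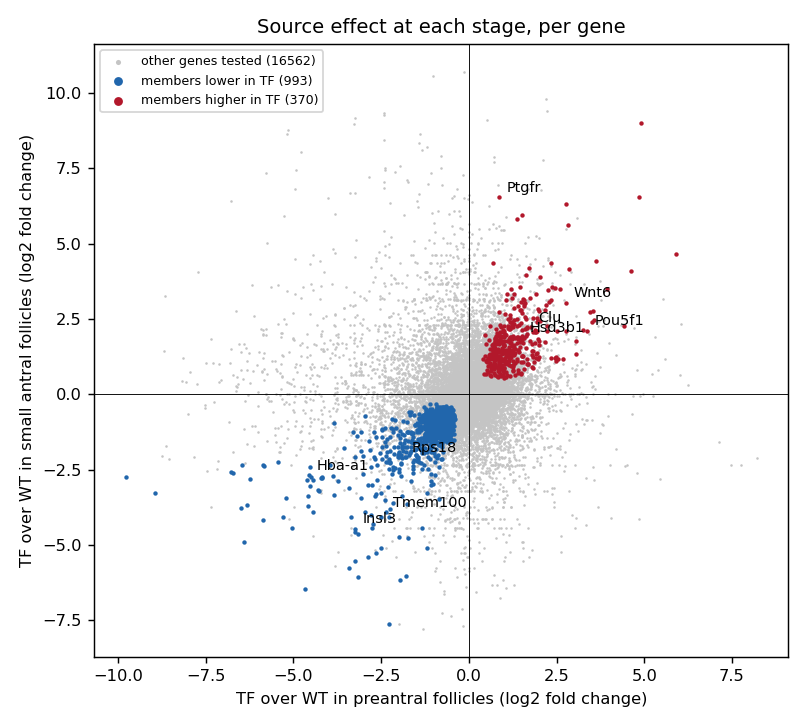
Log2 fold change of TF over WT in preantral follicles (x axis) and in small antral follicles (y axis), 1 point per gene tested; red and blue points are the 370 and 993 shared genes (members in the key), grey points the other genes. The red points lie to the upper right and the blue points to the lower left of the origin by construction, and most other genes spread around 0 on both axes.

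The number of calls rested on single libraries. Of 1400 calls in all, the number was 40 when SAF-WT replicate 1 was left out and 151 when PF-TF replicate 1 was. The counts were 294 without SAF-TF replicate 1, 427 without SAF-WT replicate 2, 508 without SAF-TF replicate 2, 522 without PF-WT replicate 1, 916 without PF-TF replicate 2 and 1859 without PF-WT replicate 2. Of 92 genes chosen for naming that passed the test, 11 still passed in the refit that omitted SAF-WT replicate 1 and 41 in that omitting PF-TF replicate 1, and 42 to 90 passed when one of the other 6 was omitted. Genes described below as passing all 8 omissions are those for which the call did not depend on any 1 library.

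Genes higher in TF included several for secreted proteins, described first. Clu, which encodes the secreted chaperone clusterin, was at 193 and 505 CPM in PF-WT and at 1094 and 1296 CPM in PF-TF. In SAF it was at 260 and 333 CPM in WT and at 1555 and 1229 CPM in TF. The lowest TF library thus lay above the highest WT library over both stages, and the source log2 fold change was 2.00 ± 0.29 (SE), adjusted p = 0.0104. Smoc1, which encodes a secreted calcium-binding matrix protein, rose with little spread in TF. Its levels were 5.78 and 7.55 CPM in PF-WT, 26.2 and 27.4 CPM in PF-TF, 4.59 and 7.11 CPM in SAF-WT, and 20.9 and 15.6 CPM in SAF-TF (log2 1.82 ± 0.26, adjusted p = 0.01).

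Wnt6, a secreted Wnt ligand, rose from 1.18 and 5.77 CPM in PF-WT to 30.8 and 17.4 CPM in PF-TF. In SAF it rose from 1.15 and 2.61 CPM to 19.7 and 11.3 CPM, a log2 fold change over both stages of 2.90 ± 0.50 (adjusted p = 0.0148). It was the single gene of the Wnt list to pass, of 24 tested. Lrrn1, which encodes a leucine-rich repeat membrane protein, was at 2.89 and 8.77 CPM in PF-WT and 25.4 and 39.4 CPM in PF-TF, and at 8.60 and 9.24 CPM in SAF-WT and 149 and 58.4 CPM in SAF-TF. Its fold change was 3.01 ± 0.45 (adjusted p = 0.0105). Ier2, an immediate early gene induced by growth stimuli, stayed past the threshold in all 8 omissions. It was at 6.43 and 8.10 CPM in PF-WT, 23.6 and 29.9 CPM in PF-TF, 10.7 and 9.12 CPM in SAF-WT, and 49.7 and 33.5 CPM in SAF-TF (log2 1.97 ± 0.23, adjusted p = 0.00859). The immediate early list as a whole leaned different ways at the stages, with medians of -0.44 in PF and 1.27 in SAF. Of its 19 genes, 2 passed as higher (Ier2 and Zfp36) and 1 as lower (Ctgf, log2 -2.11 ± 0.43). Over all genes tested, 2.16% passed as higher and 5.65% as lower. Zfp36 did not pass after a correction for transcript length and GC content (adjusted p = 0.0606).

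Other named genes higher in TF were Sod3, the extracellular superoxide dismutase, at log2 1.97 ± 0.31, and Pnpla2, the main triglyceride lipase of lipid droplets, at 2.04 ± 0.40. Ncstn, a subunit of gamma-secretase, was at 1.91 ± 0.44 and Fndc5 at 1.91 ± 0.37. The kinesin light chain gene Klc4 reached 2.19 ± 0.39, and Ap1b1, a subunit of the clathrin adaptor of the Golgi, 1.82 ± 0.39. For these 6 genes the adjusted p lay between 0.012 and 0.0341. The call was kept in 7 of the 8 omissions for Sod3, in 5 for Klc4 and Pnpla2, in 4 for Fndc5 and Ncstn and in 2 for Ap1b1. Ncstn and Ap1b1 did not pass after a correction for transcript length and GC content (described with the length classes), at 1.72 and 1.53.

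Few granulosa and steroid genes passed, although the summed level of the 8 fixed granulosa markers was higher in TF at both stages. Of 37 granulosa genes tested, 3 passed as higher and none as lower, 5 were separated upwards and 1 downwards, and the median was 0.32. Hsd3b1, which converts pregnenolone to progesterone, stands in the granulosa, steroidogenesis, theca and luteal lists. It rose from 617 and 945 CPM to 1609 and 2851 CPM in PF. In SAF it rose from 3775 and 3080 CPM to 15049 and 10489 CPM. Its source log2 fold change was 1.71 ± 0.24 (adjusted p = 0.00998). It passed in 7 of the 8 omissions. Amhr2, the receptor of anti-Müllerian hormone, was at 31.9 and 102 CPM in PF-WT against 228 and 142 CPM in PF-TF, and at 6.31 and 15.8 CPM in SAF-WT against 37.0 and 43.2 CPM in SAF-TF (1.65 ± 0.39, adjusted p = 0.0367). Inha, the inhibin alpha subunit, was at 1272 and 2387 CPM against 2895 and 2723 CPM in PF and at 259 and 346 CPM against 1207 and 1693 CPM in SAF (1.44 ± 0.36, adjusted p = 0.0426). Both kept the call in 2 omissions. Por, the electron donor of the steroidogenic P450 enzymes, was at 1.79 ± 0.42 (adjusted p = 0.0343). After a correction for transcript length and GC content Amhr2, Inha and Por did not pass, at 1.25, 1.12 and 1.28.

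Most other genes of these cells did not pass the source test. The FSH receptor gene Fshr had a source log2 fold change of 0.80 ± 0.35 (adjusted p = 0.181) and Amh 1.44 ± 0.65 (adjusted p = 0.189). The effects in PF and SAF had the same sign, at 0.17 and 1.46 for Fshr and 0.75 and 2.50 for Amh. In PF the libraries of the sources overlapped for both genes. Star, Cyp11a1 and Akr1c18, which act in or after the first steps of steroid synthesis, differed between the stages. Their stage effects in PF and SAF were -0.42 and 5.31 for Star, -2.27 and 4.98 for Cyp11a1 and -0.14 and 10.71 for Akr1c18. Ptgfr, the prostaglandin F receptor and a luteal marker, was separated at both stages, yet its levels in PF were near the floor, at 0.657 and 0.222 CPM in WT and 0.665 and 0.903 CPM in TF. Its shared call rested on SAF, where it was at 4.02 and 1.66 CPM in WT and at 291 and 246 CPM in TF. Of 18 luteal genes tested, 2 passed as higher and none as lower, with list medians of -0.29 in PF and 3.39 in SAF.

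Genes of the lysosome formed the largest group of shared genes higher in TF among the lists. Of 18 tested, 7 passed as higher and none as lower, and 12 were separated upwards at both stages and none downwards, with a list median of 0.70. Ctsd, the lysosomal aspartic protease cathepsin D, was at 37.6 and 34.6 CPM in PF-WT and 64.6 and 59.5 CPM in PF-TF, and at 25.6 and 37.3 CPM in SAF-WT and 142 and 99.6 CPM in SAF-TF (1.36 ± 0.27, adjusted p = 0.022). Grn, which encodes the progranulin precursor, was at 17.1 and 26.7 CPM against 64.0 and 45.4 CPM in PF and at 22.4 and 28.4 CPM against 71.9 and 59.9 CPM in SAF (1.35 ± 0.22, adjusted p = 0.0121). Its stage effects, 1.32 and 1.38, were close in size.

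Psap, the precursor of the saposins that help break down sphingolipids, was at 6.96 and 16.6 CPM in PF-WT and at 32.7 and 51.8 CPM in PF-TF. In SAF it was at 10.7 and 17.5 CPM in WT and at 111 and 50.6 CPM in TF (2.18 ± 0.38, adjusted p = 0.0152). The other 4 were Ctsb and Ctsa, a protease and a protective protein, at 1.72 and 1.56, Hexa, a subunit of hexosaminidase, at 0.86, and Lamp1, a membrane protein of the lysosome, at 0.80. As the choice of shared genes requires, the libraries of these 4 genes did not overlap between sources at either stage. The count of 7 fell to 4 after a correction for transcript length and GC content, with Ctsd at 0.99 (adjusted p = 0.0501) and Ctsa, Hexa and Lamp1 at 1.25, 0.56 and 0.62 not passing, so that 3 of the 7 and 1 other gene of the list passed. Leaving out a library gave 0 without SAF-WT replicate 1, 2 without SAF-TF replicate 1, PF-TF replicate 1 or SAF-WT replicate 2, 3 without SAF-TF replicate 2 and 4 without PF-WT replicate 1.

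Lysosomal genes are known targets of factors that bind the palindromic E-box CACGTG, which reads the same on both strands, so promoters were searched for it from 250 bases before to 50 bases after the start. It was found in 7.15% of the 32851 RefSeq promoters of the same length. Counted by gene, as in the shares that follow, 8.09% of the 27025 genes with such a promoter held it. Of the genes tested that had a promoter entry, 11.1% held it, against 10.4% of the shared genes higher in TF and 10.8% of those lower. In the lysosome list, 4 of the 13 genes with an entry held it, among them the shared genes Ctsd, Ctsa and Lamp1, and no match was found in the windows of Grn, Psap and Hexa. Lamp1 held 4 matches, and Ctsd and Ctsa 2 each. The windows of these 3 shared genes that hold the motif (for Ctsa, 1 of its 2 starts) are shown 5′ to 3′, with the matches in capitals (RefSeq, GRCm38.p6). They lie at chr8:13158911-13159210 (plus strand) for Lamp1, chr7:142387778-142388077 (minus strand) for Ctsd and chr2:164833523-164833822 (plus strand) for Ctsa. A match describes letters and is not a binding site.
Lamp1: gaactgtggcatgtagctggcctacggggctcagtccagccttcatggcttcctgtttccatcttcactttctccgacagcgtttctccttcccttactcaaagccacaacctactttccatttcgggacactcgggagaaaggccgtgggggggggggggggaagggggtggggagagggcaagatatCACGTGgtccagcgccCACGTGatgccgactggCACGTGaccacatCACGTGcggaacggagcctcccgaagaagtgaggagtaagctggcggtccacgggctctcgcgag
Ctsd: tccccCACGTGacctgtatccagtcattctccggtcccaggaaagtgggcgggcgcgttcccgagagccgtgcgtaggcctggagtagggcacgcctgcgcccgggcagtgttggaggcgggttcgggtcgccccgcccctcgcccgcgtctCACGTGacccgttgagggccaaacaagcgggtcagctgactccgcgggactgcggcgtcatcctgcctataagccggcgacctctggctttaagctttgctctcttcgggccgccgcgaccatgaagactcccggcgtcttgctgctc
Ctsa: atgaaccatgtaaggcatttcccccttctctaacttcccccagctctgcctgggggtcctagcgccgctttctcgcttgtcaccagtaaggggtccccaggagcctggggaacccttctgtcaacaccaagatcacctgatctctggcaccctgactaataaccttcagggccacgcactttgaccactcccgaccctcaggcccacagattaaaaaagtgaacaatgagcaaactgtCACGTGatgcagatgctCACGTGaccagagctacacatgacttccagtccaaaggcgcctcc

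Antigen presentation genes gave calls in both directions. Of 19 genes of the class I and peptide loading list, 2 passed as higher and 1 as lower. H2-T22, a non-classical class I gene, was at 11.03 and 11.4 CPM in PF-WT and at 70.0 and 54.6 CPM in PF-TF, and at 20.2 and 18.2 CPM in SAF-WT and 47.0 and 42.1 CPM in SAF-TF (1.83 ± 0.28, adjusted p = 0.0114). H2-T23 rose by 2.24 ± 0.49 on the log2 scale. B2m, the light chain that class I molecules share, fell by 0.94 on the log2 scale (SE 0.21), from 812 and 466 CPM to 254 and 314 CPM in PF and from 1839 and 1665 CPM to 923 and 1212 CPM in SAF. It kept the call in 2 of the 8 omissions, and after a correction for transcript length and GC content it was at -0.26 (adjusted p = 0.406) and no longer separated at both stages. H2-Aa, a class II gene of antigen-presenting cells, was the single gene to pass of 24 in the macrophage and immune list, at 2.92 ± 0.59. Its stage effects were 1.73 in PF and 4.20 in SAF. The list as a whole went different ways at the stages, with medians of -2.15 in PF and 1.67 in SAF. Reads of the class I genes may be divided among similar copies, so their separate values are uncertain.

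Pou5f1 was the single gene of 52 in the oocyte list to pass. It encodes a pluripotency factor that growing oocytes also express. Its levels were 16.5 and 6.88 CPM in PF-WT, 109 and 135 CPM in PF-TF, 0.688 and 2.73 CPM in SAF-WT, and 9.35 and 5.41 CPM in SAF-TF (2.86 ± 0.47, adjusted p = 0.0133). The TF libraries were above the WT libraries at both stages, as in all shared genes higher in TF, although all SAF levels were below those of PF-TF. It passed in 7 of the 8 omissions. Other oocyte genes went different ways at the 2 stages: the list median was 0.55 in PF and -0.98 in SAF. Gdf9, an oocyte growth factor, had stage effects of 1.44 and -0.96 and a source effect of 0.27 ± 0.55 (adjusted p = 0.791). Bmp15 had a source effect of 0.28 ± 0.29 (adjusted p = 0.569), and Zp3, of the egg coat, -0.79 ± 1.09 (adjusted p = 0.678). A separate list of germline stem cell and pluripotency genes did not hold Pou5f1. Of its 13 genes tested, none passed as higher and 1 as lower, beside 5.65% lower over all genes tested. The lower gene was Ifitm3 (-1.07 ± 0.22), which was at -0.63 and did not pass after the length and GC correction.

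Dbp, a transcription factor with a strong daily rhythm, rose from 5.65 and 9.65 CPM to 23.8 and 19.4 CPM in PF and from 11.9 and 12.6 CPM to 130 and 73.3 CPM in SAF (2.29 ± 0.38, adjusted p = 0.0133). It was the single gene of 17 of the circadian list to pass, while 6 of the 17 were separated upwards at both stages and none downwards, with a list median of 0.75. No source used here gives the time of day of collection.

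**Figure D2:**
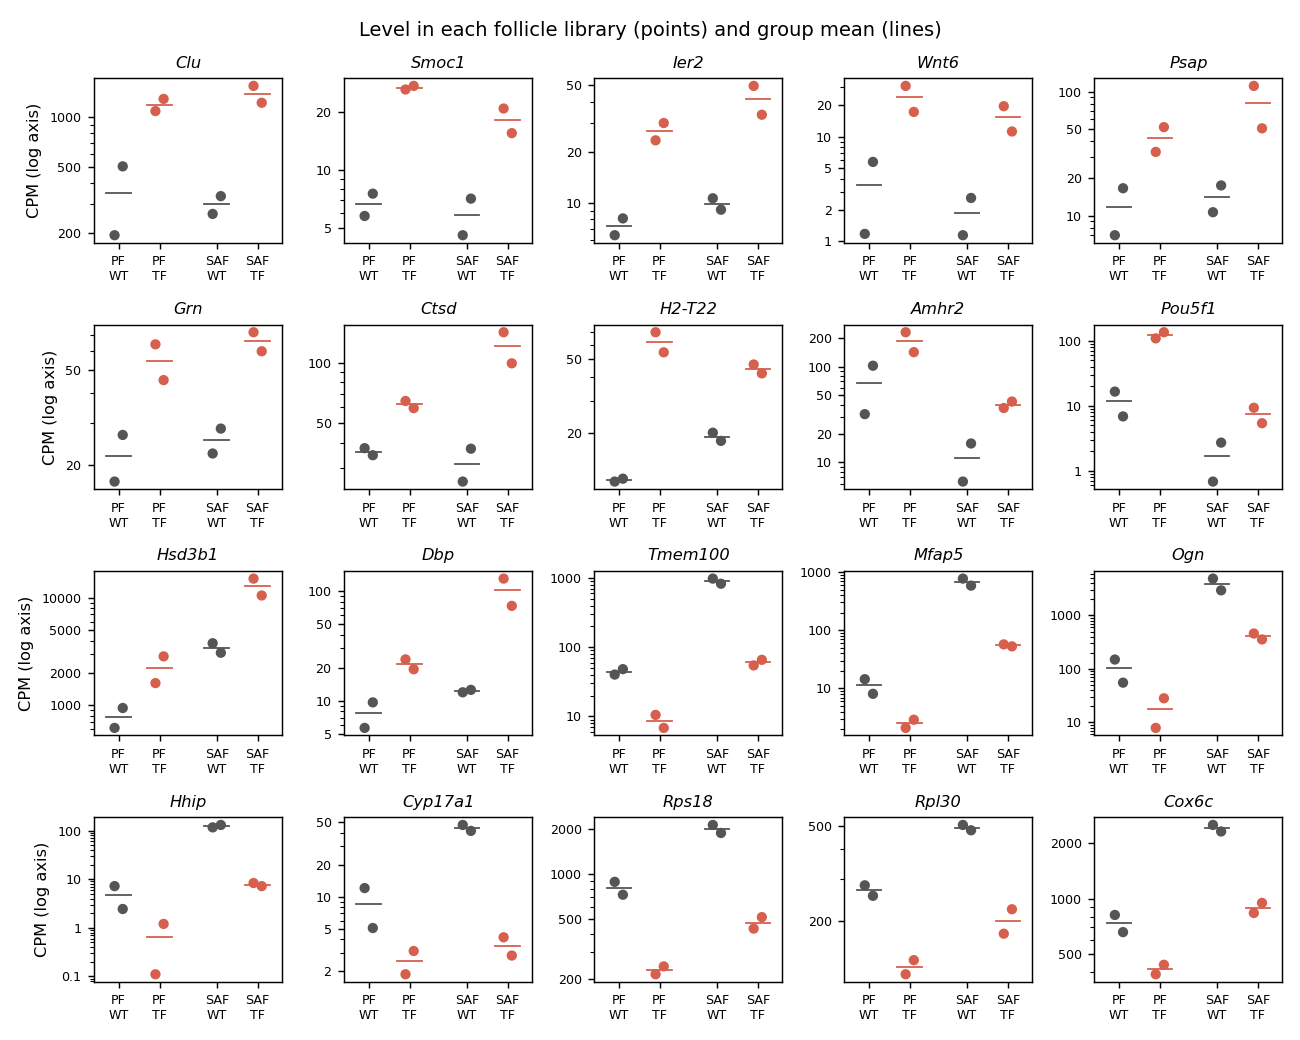
Level of 20 named genes in each of the 8 libraries (CPM, log axis), with WT libraries in grey, TF libraries in red and a line at each group mean of 2 libraries. By construction, both TF points of each panel lie on the same side of both WT points at either stage. They lie above them for the 12 genes from Clu to Dbp and below them for the 8 from Tmem100 to Cox6c.

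Genes for cytosolic ribosomal proteins, the structural proteins of the translating ribosome, were lower in TF almost throughout. Of 48 tested, 43 passed as lower and none as higher, and 47 were separated downwards at both stages. The list median was -0.95, with medians of -0.85 in PF and -0.97 in SAF. Their summed level was 26515 and 23395 CPM in PF-WT and 13421 and 14984 CPM in PF-TF. It was 50273 and 46129 CPM in SAF-WT and 22819 and 24703 CPM in SAF-TF, so that both sources had more in SAF and TF had less at each stage. Rpl30, of the large subunit, stayed past the threshold in all 8 omissions, at 282 and 255 CPM against 119 and 137 CPM in PF and 506 and 480 CPM against 177 and 224 CPM in SAF (-1.18 ± 0.15, adjusted p = 0.00859).

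The 5 that did not pass were Rpl10a, Rpl28, Rpl3, Rpl8 and Rps13, with source effects from -0.39 (Rpl28) to -1.68 (Rpl3). Of the 48 genes, 40 had a near-identical copy elsewhere among the genes tested, and their median transcript length was 992 bases. After the correction for length and GC content, 32 of 48 passed and the median was -0.77. The count was 2 when SAF-WT replicate 1 was omitted, 9 for PF-TF replicate 1, 27 for SAF-TF replicate 1 and 29 to 43 for the others.

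Rps18 had the smallest p of the named genes, and 2 of its 3 near-identical copies passed in the other direction. Rps18 (GRCm38 chr17:33951998-33955665) was at 888 and 729 CPM in PF-WT and at 215 and 242 CPM in PF-TF, and at 2130 and 1883 CPM in SAF-WT and 433 and 516 CPM in SAF-TF (-1.95 ± 0.15, adjusted p = 0.00138). Gm10260, named Rps18-ps6 in RefSeq (chr13:97760087-97760609), was chosen after its values were seen, because its p was the smallest of all genes tested. It was at 5.91 and 5.99 CPM in PF-WT and at 145 and 150 CPM in PF-TF, and at 18.6 and 14.8 CPM in SAF-WT and 237 and 329 CPM in SAF-TF (4.34 ± 0.21). Gm11361 (chr13:28257615-28258138) was at 18.0 and 16.8 CPM against 40.5 and 41.9 CPM in PF and 43.1 and 40.0 CPM against 66.0 and 98.1 CPM in SAF (1.11 ± 0.18, adjusted p = 0.0133). These genes are shared genes, so they had no overlap between the sources at either stage by construction. The third copy, Rps18-ps3, did not pass (0.12 ± 0.32, adjusted p = 0.848).

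The GENCODE transcripts of Rps18 and Gm10260 differed at 5 of 545 aligned bases, and 4 of these lay in the 459-base coding sequence of Rps18. Counted from 1 at the first coding base, with the base of Rps18 before and that of the copy after the position, they were T186C, A337C, G371A and G431A. Gm11361 differed at 4 of 540 bases, of which T11A, A171C and A337C lay in the coding sequence. The stretch from coding base 312 to 431 is printed 5′ to 3′ because it holds 3 of the 4 coding differences of Gm10260 and 1 of the 3 of Gm11361, which are in capitals (in Rps18, the bases at which either copy differs).
Rps18: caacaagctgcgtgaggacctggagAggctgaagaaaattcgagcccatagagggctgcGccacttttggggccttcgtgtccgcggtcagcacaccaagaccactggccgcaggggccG
Gm10260: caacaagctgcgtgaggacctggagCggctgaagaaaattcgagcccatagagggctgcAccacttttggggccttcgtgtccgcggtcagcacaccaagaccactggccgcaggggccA
Gm11361: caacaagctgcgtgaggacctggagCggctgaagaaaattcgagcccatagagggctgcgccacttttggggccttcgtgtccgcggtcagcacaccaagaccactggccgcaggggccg

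No source used here says how reads that fit more than 1 copy were counted, so the division between Rps18 and its copies is uncertain. Rps18 and its 3 copies were therefore also summed. The sum was 916 and 755 CPM in PF-WT and 405 and 437 CPM in PF-TF, and 2200 and 1943 CPM in SAF-WT and 742 and 953 CPM in SAF-TF. This is a log2 ratio of means of -0.99 in PF and -1.29 in SAF, nearer the median of the list than the value of Rps18 alone. The copies alone summed to 27.4 and 26.2 CPM in PF-WT and 190 and 194 CPM in PF-TF, and to 69.8 and 60.5 CPM in SAF-WT and 309 and 437 CPM in SAF-TF.

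Families of a pair of other genes, Rpl29 and Hspa8, were also chosen after their values were seen, and their parts moved differently from those of Rps18. Rpl29 was at 551 and 412 CPM in PF-WT and at 135 and 144 CPM in PF-TF, and at 886 and 896 CPM in SAF-WT and 22.3 and 4.96 CPM in SAF-TF (-3.86 ± 0.95, adjusted p = 0.04), and did not pass after the length and GC correction (-3.91, adjusted p = 0.0742). Of its 8 copies, Gm8210 and Rpl29-ps5 passed as higher and Gm6344 and Gm10709 as lower. Rpl29-ps5 was near the floor, at 0 and 0 CPM in PF-WT and 0.665 and 1.00 CPM in PF-TF. In SAF it was at 0 and 0.118 CPM in WT and 2.09 and 1.58 CPM in TF. Gm8210 was also low, at 1.31 to 7.92 CPM over the libraries. The 8 copies summed to 91.0 and 97.8 CPM in PF-WT, 62.8 and 72.5 CPM in PF-TF, 158 and 167 CPM in SAF-WT, and 165 and 163 CPM in SAF-TF. The family as a whole had log2 ratios of -1.48 in PF and -2.57 in SAF. For Hspa8, a constitutive heat shock chaperone, the parent gene did not pass (-0.40 ± 0.29, adjusted p = 0.41), whereas its copy Gm15459 rose from 15.1 and 47.1 CPM to 426 and 304 CPM in PF and from 18.4 and 20.9 CPM to 158 and 111 CPM in SAF (3.17 ± 0.36, adjusted p = 0.00859). The summed family had log2 ratios of 0.32 in PF and -0.20 in SAF. Near-identical copies (at least 95% identity over at least 80% of the shorter transcript) were present for 10.1% of all genes with a transcript, for 5.22% of the shared genes higher in TF and for 33.3% of those lower.

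**Figure D3:**
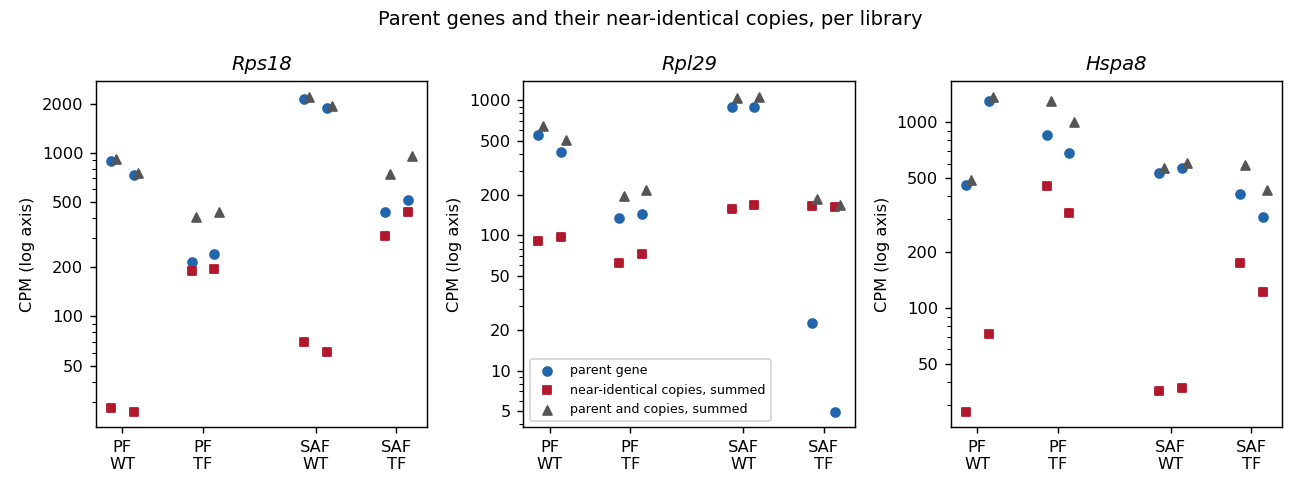
Level (CPM, log axis) of the parent genes Rps18, Rpl29 and Hspa8, of their near-identical copies summed, and of parent and copies together, in each of the 8 libraries. The Rps18 copies lie higher in TF at both stages while the parent gene and the sum lie lower, and for Hspa8 the copies lie higher in TF while the sums of the sources overlap at both stages.

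Nuclear genes of oxidative phosphorylation, the subunits of the respiratory chain and ATP synthase, were also lower in TF. Of 42 tested, 25 passed as lower and none as higher, 30 were separated downwards and 1 upwards, and the median was -0.63. Cox6c, of cytochrome c oxidase, was at 816 and 660 CPM in PF-WT and 391 and 440 CPM in PF-TF, and at 2501 and 2306 CPM in SAF-WT and 837 and 949 CPM in SAF-TF (-1.13 ± 0.17, adjusted p = 0.0105). Uqcrb, of complex III, was at 404 and 332 CPM against 161 and 195 CPM in PF and at 1306 and 1013 CPM against 579 and 642 CPM in SAF (-0.99 ± 0.15, adjusted p = 0.0115). Ndufa4, a small subunit of the chain, was at -0.90 ± 0.13 (adjusted p = 0.0105). None of these 3 passed after the length and GC correction, which moved Cox6c to -0.55 (adjusted p = 0.0672), Uqcrb to -0.13 (adjusted p = 0.616) and Ndufa4 to -0.14 (adjusted p = 0.536).

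Members that did not pass included several with longer transcripts, and their source effects were 0.38 for Atp5a1, 0.43 for Atp5b, 0.61 for Sdha and 0.68 for Uqcrc1. These are only some of the members that did not pass. In the list 30 genes were separated downwards, more than the 25 that passed as lower, and 1 was separated upwards. Of the 13 transcripts of the mitochondrial genome itself, none passed with edgeR, 2 were separated upwards, and the median was 0.31. After the correction for length and GC content, 4 of the 42 nuclear genes passed and the median was -0.26. The count of 25 was 0 without SAF-WT replicate 1, 8 without SAF-TF replicate 1 or PF-WT replicate 1, 1 without PF-TF replicate 1, 12 without PF-TF replicate 2 or SAF-WT replicate 2, and 13 without SAF-TF replicate 2.

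Mitochondrial ribosomal proteins, which translate the transcripts of that genome, showed a weaker form. Of 47 tested, 18 passed as lower and none as higher, 29 were separated downwards and 1 upwards, and the median was -0.47. Mrpl18, of its large subunit, was at 367 and 338 CPM against 196 and 220 CPM in PF and at 408 and 407 CPM against 227 and 257 CPM in SAF (-0.75 ± 0.13, adjusted p = 0.0142). After the correction, 4 of the 47 passed and the median was -0.23. The count was 0 without PF-TF replicate 1, SAF-TF replicate 1 or SAF-WT replicate 1, 2 without SAF-WT replicate 2 or PF-WT replicate 1, 6 without SAF-TF replicate 2 and 5 without PF-TF replicate 2.

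Genes used in DNA replication were lower in TF where they passed. Of 22 replication-dependent histone genes tested, 6 passed as lower and none as higher, and 13 were separated downwards and none upwards, with a median of -0.74. Hist1h4d was at 173 and 122 CPM in PF-WT, 43.1 and 59.9 CPM in PF-TF, 278 and 233 CPM in SAF-WT, and 68.6 and 57.7 CPM in SAF-TF (-1.77 ± 0.20, adjusted p = 0.00859). Hist1h1b, a linker histone, was at 42.4 and 46.3 CPM against 18.6 and 19.3 CPM in PF and 70.1 and 60.1 CPM against 21.1 and 21.5 CPM in SAF (-1.42 ± 0.18, adjusted p = 0.00859). These 2 genes passed in all 8 omissions. Many histone messages lack a poly(A) tail, and the libraries were made from polyadenylated RNA, so the values concern the polyadenylated part only.

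Of 40 cell cycle genes, 6 passed as lower and none as higher, and the median was -0.44. The list median was -0.09 in PF and -0.69 in SAF. In PF the summed level of the list overlapped between the sources, at 6553 and 7573 CPM in WT and 6568 and 5824 CPM in TF. Ccna2, the S and G2 phase cyclin, was at 182 and 189 CPM in PF-WT, 138 and 102 CPM in PF-TF, 143 and 148 CPM in SAF-WT, and 48.4 and 62.3 CPM in SAF-TF (-1.01 ± 0.20, adjusted p = 0.0219). Tyms, of thymidylate synthesis, was at -0.92 ± 0.19 and Pcna, the sliding clamp of the replication fork, at -0.81 ± 0.17. The remaining 3 were Top2a, Ccnb2 and Nusap1, from -0.86 to -1.01. Mki67 was at -0.75 with an adjusted p of 0.0869 and did not pass. Tipin, a replication fork protein outside these lists, fell from 386 and 463 CPM to 188 and 174 CPM in PF and from 571 and 510 CPM to 187 and 248 CPM in SAF (-1.27 ± 0.15, adjusted p = 0.00859), and passed in all 8 omissions. The cell cycle count fell to 2 after the length and GC correction, with Pcna, Top2a, Ccnb2 and Nusap1 not passing at -0.60, -0.69, -0.79 and -0.83, and to 0 without SAF-TF replicate 1, SAF-WT replicate 1 or SAF-WT replicate 2. It was 1 without PF-TF replicate 1 or SAF-TF replicate 2, 2 without PF-TF replicate 2 and 4 without PF-WT replicate 1. The histone count was 2 or 3 without SAF-TF replicate 1, SAF-TF replicate 2, SAF-WT replicate 1, SAF-WT replicate 2 or PF-TF replicate 1, and 4 without PF-WT replicate 1.

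Several theca genes were lower in TF at both stages, among them genes that respond to hedgehog signals. Of 16 theca and interstitial genes tested, 7 passed as lower and 1, Hsd3b1, as higher, and the median was -0.92. Hhip, a hedgehog target that also binds the ligand, was at 7.22 and 2.44 CPM in PF-WT and 0.111 and 1.20 CPM in PF-TF. In SAF it was at 117 and 131 CPM in WT and 8.36 and 7.22 CPM in TF (-3.59 ± 0.51, adjusted p = 0.0102). The hedgehog receptor gene Ptch1 and the effector Gli2 were at -1.86 and -2.03. Cyp17a1, the enzyme of androgen synthesis, was at 12.1 and 5.10 CPM in PF-WT, 1.88 and 3.11 CPM in PF-TF, 47.2 and 41.5 CPM in SAF-WT, and 4.18 and 2.82 CPM in SAF-TF (-2.75 ± 0.48, adjusted p = 0.015).

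Insl3, a peptide hormone of the theca, was at 25.9 and 5.55 CPM in PF-WT, 0.222 and 3.01 CPM in PF-TF, 87.6 and 79.5 CPM in SAF-WT, and 5.61 and 1.92 CPM in SAF-TF (-3.91 ± 0.71, adjusted p = 0.0172). The remaining genes of the 7 were Acta2 (-1.81 ± 0.42) and the nuclear receptor gene Nr2f2 (-0.93). The summed level of the 6 fixed theca markers was 103 and 70.4 CPM against 23.7 and 43.2 CPM in PF and 559 and 565 CPM against 1852 and 1130 CPM in SAF. In SAF the sum was thus larger in TF, where 2 of the 6, Star and Lhcgr, were at 1289 and 866 CPM and at 514 and 216 CPM, while the other 4 passed as lower. After the length and GC correction 5 of the 16 genes passed as lower, and Acta2 and Nr2f2, at -1.88 and -0.82, did not. The count of 7 became 0 without SAF-WT replicate 1, 1 without SAF-TF replicate 1 or PF-TF replicate 1, 3 without SAF-TF replicate 2, and 4 without SAF-WT replicate 2 or PF-TF replicate 2.

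Stromal matrix genes followed. Of 21 tested, 6 passed as lower and none as higher, 10 were separated downwards and none upwards, and the median was -1.35. Mfap5, a microfibril protein, passed in all 8 omissions, at 14.4 and 8.10 CPM in PF-WT, 2.10 and 2.91 CPM in PF-TF, 771 and 584 CPM in SAF-WT, and 57.2 and 52.9 CPM in SAF-TF (-3.01 ± 0.34, adjusted p = 0.00859). Ogn, the proteoglycan osteoglycin, was at 150 and 55.3 CPM against 7.86 and 28.2 CPM in PF and at 4893 and 2950 CPM against 459 and 356 CPM in SAF (-2.89 ± 0.45, adjusted p = 0.0119). Aspn, the related proteoglycan asporin, was at -3.11 ± 0.60. The other genes that passed were the collagen genes Col1a2 and Col3a1 and the microfibril gene Mfap4, from -1.43 to -1.61. Col3a1 did not pass after the length and GC correction (-1.76, adjusted p = 0.0566).

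The 6 fixed stroma markers summed to 397 and 172 CPM in PF-WT and 25.8 and 87.8 CPM in PF-TF, and to 6849 and 4714 CPM in SAF-WT and 1912 and 1309 CPM in SAF-TF. How much stroma remained attached to each follicle was not measured, and its part in these results was not tested. The count of 6 became 1 without SAF-WT replicate 1, 2 without PF-TF replicate 1, SAF-TF replicate 2 or PF-WT replicate 1, and 3 without SAF-TF replicate 1, PF-TF replicate 2 or SAF-WT replicate 2. The smooth muscle genes Acta2 and Actg2 passed as lower (2 of 14), with Actg2 at -1.47 ± 0.38, and neither passed after that correction (adjusted p = 0.0542 and 0.0634). Of 17 endothelial genes 1 passed as lower, beside 5.65% of all genes tested. This gene, Emcn, was at 6.30 and 2.89 CPM against 2.66 and 0.702 CPM in PF. In SAF it was at 143 and 119 CPM against 31.2 and 30.8 CPM (-1.83 ± 0.37, adjusted p = 0.0221).

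Tmem100, which encodes a membrane protein of BMP signalling in vessels, had the largest decrease among the named genes that passed in all 8 omissions. It was at 40.3 and 48.3 CPM in PF-WT and 10.5 and 6.82 CPM in PF-TF, and at 984 and 830 CPM in SAF-WT and 54.7 and 65.9 CPM in SAF-TF. Its fold change was -3.17 ± 0.34 (adjusted p = 0.00859), and across the 8 omissions it ran from -3.42 to -2.92 and always passed. Cldn1, a tight junction gene, was at 4.60 and 3.66 CPM in PF-WT and 0 and 1.00 CPM in PF-TF, and at 86.3 and 91.9 CPM in SAF-WT and 6.82 and 5.08 CPM in SAF-TF (-3.59 ± 0.50, adjusted p = 0.00998). Myocd, a coactivator of smooth muscle genes, was at -3.48 ± 0.60 and the chemoattractant gene Rarres2 at -2.32 ± 0.38. Fgl2, which encodes a fibrinogen-like protein, and Stc1, the secreted stanniocalcin, were at -2.31 ± 0.32 and -2.28 ± 0.34. Plagl1, an imprinted zinc finger gene, was at 137 and 85.9 CPM against 42.2 and 58.3 CPM in PF and 130 and 127 CPM against 40.7 and 52.9 CPM in SAF (-1.30 ± 0.21, adjusted p = 0.0119).

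Haemoglobin transcripts, which mark red blood cells, were lower in TF at both stages, with 4 of 5 erythroid genes passing. Hba-a1 was at 1926 and 662 CPM in PF-WT and 2.66 and 108 CPM in PF-TF, and at 1205 and 1182 CPM in SAF-WT and 240 and 130 CPM in SAF-TF (-3.61 ± 0.92, adjusted p = 0.0447). PF-TF replicate 1 was far below PF-TF replicate 2. Hba-a2, Hbb-bt and Hbb-bs were at -3.98 ± 0.84, -3.72 ± 0.88 and -3.47 ± 0.86. The list passed 0 genes without SAF-WT replicate 1, SAF-WT replicate 2, SAF-TF replicate 1, SAF-TF replicate 2 or PF-WT replicate 1, 1 gene without PF-TF replicate 2 and 1, Hba-a2, after the length and GC correction. The part of blood in the other results was not tested.

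**Figure D4:**
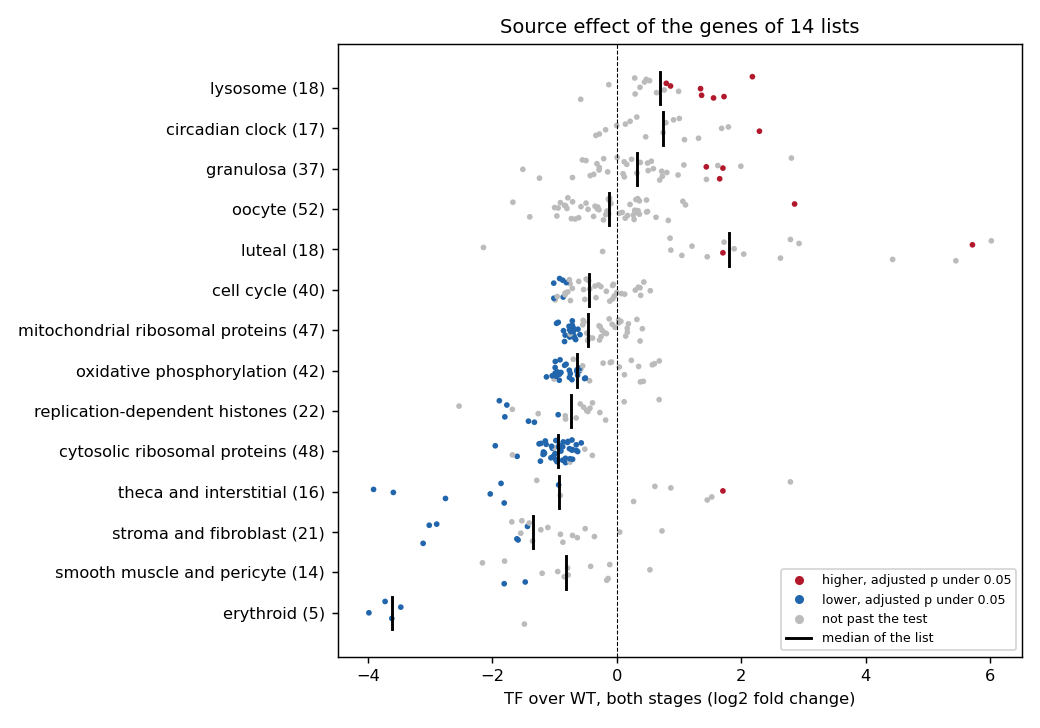
Source log2 fold change over both stages (x axis) of each gene tested in 14 of the 46 lists (rows, with the number tested), where red and blue points passed as higher and lower, grey points did not pass and black bars are list medians. The cytosolic ribosomal proteins form a narrow group around -0.95, while the theca and stroma lists spread over several log2 units.

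Among small nuclear and structural proteins, Snrpf, of the spliceosome, fell from 228 and 191 CPM to 75.1 and 84.3 CPM in PF and from 323 and 326 CPM to 95.3 and 138 CPM in SAF (-1.43 ± 0.16, adjusted p = 0.00859). Myl12a, a myosin light chain, fell from 999 and 996 CPM to 400 and 467 CPM in PF and from 2010 and 1938 CPM to 953 and 953 CPM in SAF (-1.13 ± 0.13, adjusted p = 0.00859). Hspe1, the mitochondrial co-chaperonin, fell from 443 and 426 CPM to 209 and 229 CPM in PF and from 1008 and 892 CPM to 394 and 387 CPM in SAF (-1.14 ± 0.13, adjusted p = 0.00859). All 3 passed in all 8 omissions, and in each the fold change in PF and in SAF differed by less than 0.3 on the log2 scale.

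The shared genes differed in transcript length and base composition from the other genes, which the choice of genes did not use. The median length was 2810 bases over the 16399 genes with a GENCODE transcript, 2626 bases for the shared genes higher in TF and 1242 bases for those lower. Median GC content was 49.6%, 54.9% and 47.2% in the same order. Of 553 genes with transcripts of up to 500 bases, 21.5% were shared genes lower in TF, against 2.55% of the 4895 genes with over 4000 bases. Shared genes higher in TF made up 0.336% of the genes with up to 44% GC and 5.29% of those above 56%. The source log2 fold change over all genes had a median of -0.79 in the shortest class and 0.54 in the class richest in GC, and correlated with GC content at Spearman's rho 0.371 and with length at 0.142, across genes, which are not independent replicates.

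Because the ribosomal, respiratory and histone lists have short transcripts (medians of 992, 870 and 734 bases), all genes were refitted with a smooth correction for length and GC content in each library. This left 443 calls, 126 higher and 317 lower. Of the 1363 shared genes, 1305 could be refitted, 1299 kept their sign and 409 still passed, 109 higher and 300 lower. Leaving out genes with a near-identical copy left 840 calls, 268 higher and 572 lower. Transcript length, GC content and copies thus move with the source effect, and their part in each single result was not tested beyond these refits.

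**Figure D5:**
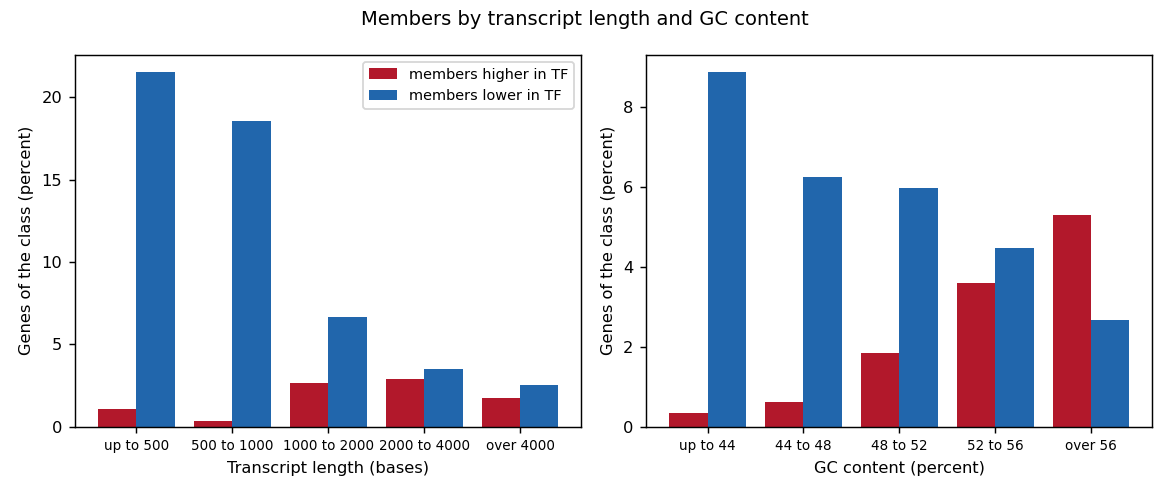
Percent of genes of each transcript length class (left, bases) and GC content class (right, percent) that were shared genes (members in the key) higher (red) or lower (blue) in TF. The lower genes fall from 21.5% of the shortest class to 2.55% of the longest, and the higher genes rise from 0.336% to 5.29% with GC content.

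By chromosome, shared genes lower in TF made up between 4.28% (chromosome 7) and 7.75% (chromosome 13) of the genes tested, and those higher between 0.658% (chromosome 12) and 4.44% (chromosome 19). Among the shared genes, 349 of the 370 higher and 774 of the 993 lower were protein coding, and 11 and 135 were annotated as pseudogenes. Of the 46 lists, 8 had no gene past the source test: ovarian surface epithelium, oviduct and ciliated epithelium, apoptosis and atresia, TGF-beta and BMP signalling, Notch signalling, cholesterol synthesis, the mitochondrial genome, and DNA methylation and chromatin. Of 22 genes known to differ between laboratory mouse strains, 1 passed as lower, beside 5.65% of all genes tested. It was Rps3a2 (-0.91 ± 0.21), which did not pass after the length and GC correction (-0.40, adjusted p = 0.283). Nnt, which carries a deletion in some C57BL/6 substrains, was at 19.4 and 18.4 CPM in PF-WT, 13.96 and 16.6 CPM in PF-TF, 38.7 and 37.3 CPM in SAF-WT, and 31.5 and 18.4 CPM in SAF-TF (-0.46 ± 0.22, adjusted p = 0.22). It was separated downwards at both stages but did not pass.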

How the data were processed

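The data are counts of reads per gene in 8 single-follicle libraries. The authors deposited 1 table of raw counts for TF and 1 for WT, per the file headers, and alignment was to GRCm38, by HISAT2 2.0.1 (both per the submitters' processing notes). No source used here says that the TF and WT tables were counted with the same settings. Any difference in handling or counting between the tables therefore cannot be told apart from the source effect. For the read counter, annotation and strand setting the answer is "not given in the sources used here", so genes overlapping on opposite strands may share reads. The deposited normalized, fold change and FDR columns were not used.

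The tables were joined on gene symbol (21997 genes in both, out of 22129 in TF and 22138 in WT), and every sample column was used. Genes were kept by filterByExpr (minimum count 10, minimum total 15) and scaled with TMM factors. The source effect came from the edgeR 4.0.16 quasi-likelihood test (R 4.3.3) on all 8 libraries with terms for source and stage (5 residual degrees of freedom). Effects within a stage and the interaction came from 1 mean per group (4 residual degrees of freedom). p-values are Benjamini-Hochberg adjusted over all 17925 genes, with a threshold of 0.05, and SE is the log2 fold change over the square root of F. Totals of 7654700 to 9804822 counts were set beside the spread between follicles (biological coefficient of variation 0.362).

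Named genes had to pass, be separated the same way at both stages and reach a mean of 10 CPM in the higher source at each stage, leaving out predicted, small RNA and ribosomal protein genes and pseudogenes. Taken were the 15 per direction with the largest smaller stage effect, and the 6 per direction with the smallest p. Added were up to 3 shared genes per list at any level, and fixed markers; others that complete a stated count were named after their values were seen. Members and lists were chosen with earlier results of these data known, so list counts are descriptions. Transcript lengths, GC content and copies (blastn 2.17.0) are from GENCODE vM21, and gene positions (16604 genes matched) and promoters are from RefSeq for GRCm38.p6. The labels do not say whether replicate numbers pair the libraries, and the main tests used no pairing. Deviations of replicate 1 correlated at -0.146 to 0.159 between groups, which cannot exclude a pairing. Alternatives were other scale factors and filters, DESeq2 1.42.0, the replicate block, each library left out and, added after seeing the data, a length and GC correction (mgcv 1.9.3), removal of genes with near-identical copies and a crossed block. The edgeR fit was also run on simulated counts that had the same spread for every gene, unlike these data, so that run does not bear on the calls given here. Genes listed in 1 table only were left out of the tests.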

Additional observations from a re-analysis of the deposited data

Results flagged for a closer look

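The effect of source differed between the stages, by the edgeR interaction test, for 6 of the shared genes. The difference, SAF minus PF on the log2 scale, was 5.68 ± 1.00 (SE) for Ptgfr (adjusted p = 0.0349) and 4.46 ± 0.63 for Gm7049 (adjusted p = 0.0185), both higher in TF. It was -4.24 ± 0.70 for Rpl29, -3.06 ± 0.47 for its copy Gm6344, -2.09 ± 0.33 for Hmgb2, a chromatin protein of dividing cells, and -2.61 ± 0.31 for Scoc, with adjusted p from 0.0068 to 0.029, all lower in TF. Hmgb2 was at 572 and 395 CPM in PF-WT and 197 and 222 CPM in PF-TF, and at 562 and 507 CPM in SAF-WT and 46.9 and 62.4 CPM in SAF-TF, so its decrease was larger in SAF. Over all genes the interaction test called 118 upwards and 44 downwards. When PF-TF replicate 1 or 2 was omitted these were 83 and 19 or 242 and 51, for PF-WT replicate 1 or 2 they were 128 and 36 or 240 and 103, for SAF-TF replicate 1 or 2 they were 40 and 10 or 90 and 20, and for SAF-WT replicate 1 or 2 they were 51 and 61 or 24 and 4.

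The same test passed for 5 of the fixed marker genes, none of which was separated the same way at both stages. The differences were 10.85 ± 0.29 for Akr1c18, 7.24 ± 0.78 for Cyp11a1 and 5.73 ± 0.58 for Star, which act in steroid metabolism. They were -4.64 ± 0.75 for Ddx4, a germ cell helicase, and -4.28 ± 0.78 for Figla, an oocyte transcription factor.

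Some genes were listed in the table of 1 source only and entered no test. In 4 of them every library of that table held over 3 counts. Vmn2r13, a vomeronasal receptor gene listed for TF, had 34, 48, 9 and 8 counts (2 SAF libraries, then 2 PF libraries), with 48 the highest, and Grb7, an adaptor gene listed for TF, had at most 7. For WT, Gm4055 had at most 37 counts and LOC102631539 at most 16. Their counts in the other source were not analysed here.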

How the results depend on the processing

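Each group held 2 libraries, and leaving 1 out assumes that the lone library varies like the others. Over the 8 omissions the calls of the source effect ran from 40 to 1859 (11 to 729 higher, 29 to 1130 lower), and shared genes from 9 to 719 higher and 29 to 1123 lower. Separation needs fewer libraries then, and gave 5071 to 6706 genes (2078 to 3070 higher, 2897 to 3636 lower). Calls in PF ran from 1 to 258 higher and 0 to 677 lower, in SAF from 77 to 1354 higher and 50 to 1256 lower, and of the interaction from 24 to 242 higher and 4 to 103 lower. Lower calls ran from 2 to 43 for cytosolic ribosomal proteins, 0 to 26 for oxidative phosphorylation, 0 to 19 for mitochondrial ribosomal proteins, 0 to 6 for the theca, 1 to 6 for the stroma, 0 to 4 for erythroid genes, 2 to 7 for histones and 0 to 6 for the cell cycle, and higher calls from 0 to 9 for the lysosome.

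With library totals alone, lower calls were 601, of which 588 were also separated, and 14 for oxidative phosphorylation, 9 for mitochondrial ribosomal proteins, 2 for erythroid genes and 2 for the cell cycle. RLE factors gave 17 lower calls in PF. Without a low-count filter PF had 36 higher and 171 lower calls. The DESeq2 Wald test called 3131 genes (1177 higher, 1954 lower), 332 higher and 990 lower in PF, 1613 lower in SAF, and 482 higher and 328 lower for the interaction; all 1349 shared genes to which it gave an adjusted p passed. The average of the stage effects called 2572 genes (952 higher, 1620 lower). After the length and GC correction there were 443 calls (126 higher, 317 lower), 121 and 315 of them separated, with 4 lower for oxidative phosphorylation, 4 for mitochondrial ribosomal proteins, 1 for erythroid genes and 2 for the cell cycle, and 4 higher for the lysosome. Without genes that have near-identical copies there were 840 calls, 572 lower, of which 563 were separated.

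The replicate block called 603 genes (115 higher, 488 lower), 2 higher and 4 lower in PF, 485 and 584 in SAF, and 62 and 12 for the interaction. A crossed pairing of the block gave 1638 calls (556 higher, 1082 lower).

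Passing named genes had to be separated at both stages, so an omission could hardly turn their sign. For fixed genes free of that rule, over the omissions Cyp11a1 ran from -0.63 to 3.50, Zp3 from -1.62 to 0.58, Ddx4 from -0.33 to 1.499, Gdf9 from -0.16 to 0.92 and Cyp19a1 from -1.19 to 0.45. The cause of these changes was not tested.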
